A study of Mus musculus with 6 samples.

Results

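The genes described here encode heat shock proteins, chaperonins and their partners: the HSP70, HSP110, HSP90, HSP40 and small heat shock protein families, the HSP60 and HSP10 pair, subunits of the chaperonin CCT, co-chaperones and the heat shock transcription factors HSF1 and HSF2. They were chosen as a list of 39 gene symbols, out of 46078 Ensembl genes in the deposited table. Of these, 38 rows carried the symbol itself. Dnajb6 was found by its Ensembl identifier, because its row also names the pseudogene Gm5917. The row called Hspa14 in the deposited table carries an identifier that GENCODE M21 names Gm45902.

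The values come from RNA-seq of splenic regulatory T cells (Treg cells), the Foxp3-expressing CD4 T cells that restrain immune responses. The libraries labelled MAZR-cKO came from mice with the labelled genotype MAZRf/f DEREG-eGFP+ CD4-cre+, in which Cre under Cd4 control, active in T cells from the thymus onward, is meant to delete the transcription factor MAZR, encoded by Patz1. The WT libraries came from mice labelled wild type DEREG-eGFP+, a label that names no Cre. Each label had 3 libraries. Mice of both labels were C57BL/6, 6 to 8 weeks old and carried the DEREG transgene, a bacterial artificial chromosome whose diphtheria toxin receptor and green fluorescent protein are driven by Foxp3 control regions and which was used to sort CD4-positive, eGFP-positive cells, 800000 to 2000000 per RNA preparation. No source says whether a library came from 1 animal or from several, so p-values measure only the spread between these libraries.

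Levels are in CPM, reads per gene scaled to the library's total, and the recovered totals were 15481565 to 28184456 reads per library, so that 1 read was worth 0.0347 to 0.0621 CPM. Foxp3, Cd4 and Il2ra, which define the sorted cells, were at 667 CPM or more in every library. Patz1 went against the labels: it stood at 177, 181 and 179 CPM in libraries 1, 2 and 3 labelled MAZR-cKO, against 71.6, 74.9 and 67.6 CPM in WT 1, 2 and 3. The gene level sums all exons and does not show whether single exons were lost. Directions below are therefore those of libraries labelled MAZR-cKO against libraries labelled WT, and "lower" says nothing of whether MAZR was lost. Sex-linked transcripts also differed within each replicate number: the summed level of 4 Y-linked genes was 116, 0.48 and 199 CPM in libraries 1, 2 and 3 labelled MAZR-cKO, against 217, 164 and 276 CPM in WT 1, 2 and 3. Xist, from the inactive X of female cells, stood at 1145, 1552 and 605 CPM in libraries 1, 2 and 3 labelled MAZR-cKO. In WT 1, 2 and 3 it stood at 561, 774 and 355 CPM, the lower within each number. Apart from MAZR-cKO 2, every library held Xist beside a Y-linked sum of 116 CPM or more, as would a mix of RNA from both sexes. Whether these libraries pooled animals was not tested. The part of sex in the levels below was not tested either. In such bulk samples, a smaller share of cells expressing a gene and less of its RNA per cell cannot be told apart.

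Chaperones bind unfolded stretches of protein and release them by cycles of ATP use. HSP40 proteins bring clients to HSP70 and stimulate its ATPase, HSP110 proteins exchange its nucleotide, and the co-chaperone Stip1 passes clients on to HSP90. CCT is a closed double ring of paralogous subunits that folds actin and tubulin. Under heat or other protein damage HSF1 binds heat shock elements and induces many of these genes, while misfolding in the endoplasmic reticulum (ER) induces ER chaperones through other factors. In Treg cells, chaperones are also known for their link to Foxp3 protein turnover.

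Chaperone transcripts were abundant in these cells, and most genes held a steady level. Across the 6 libraries the member means ran from 0.213 CPM for Hspb1 to 1316 CPM for Hsp90ab1. Summed over all 39 genes, the level was 5715, 5148 and 5450.4 CPM in libraries 1, 2 and 3 labelled MAZR-cKO, against 5969, 5611 and 5879 CPM in WT 1, 2 and 3. It was lower under MAZR-cKO within each replicate number, though the labels overlapped. Of the 39 genes, 37 reached 1 CPM in at least 3 libraries and were tested, while Hspa1a and Hspb1 did not. Dnaja1, Dnaja3, Dnajc7, Cct8, Tcp1, Hspd1, Hspe1 and Hsp90b1 overlap a gene on the opposite strand that was at 1 CPM or more in every library. The kit keeps strand, but whether the counting used it is not given in the sources used here, so these 8 levels are uncertain.

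**Figure D1:**
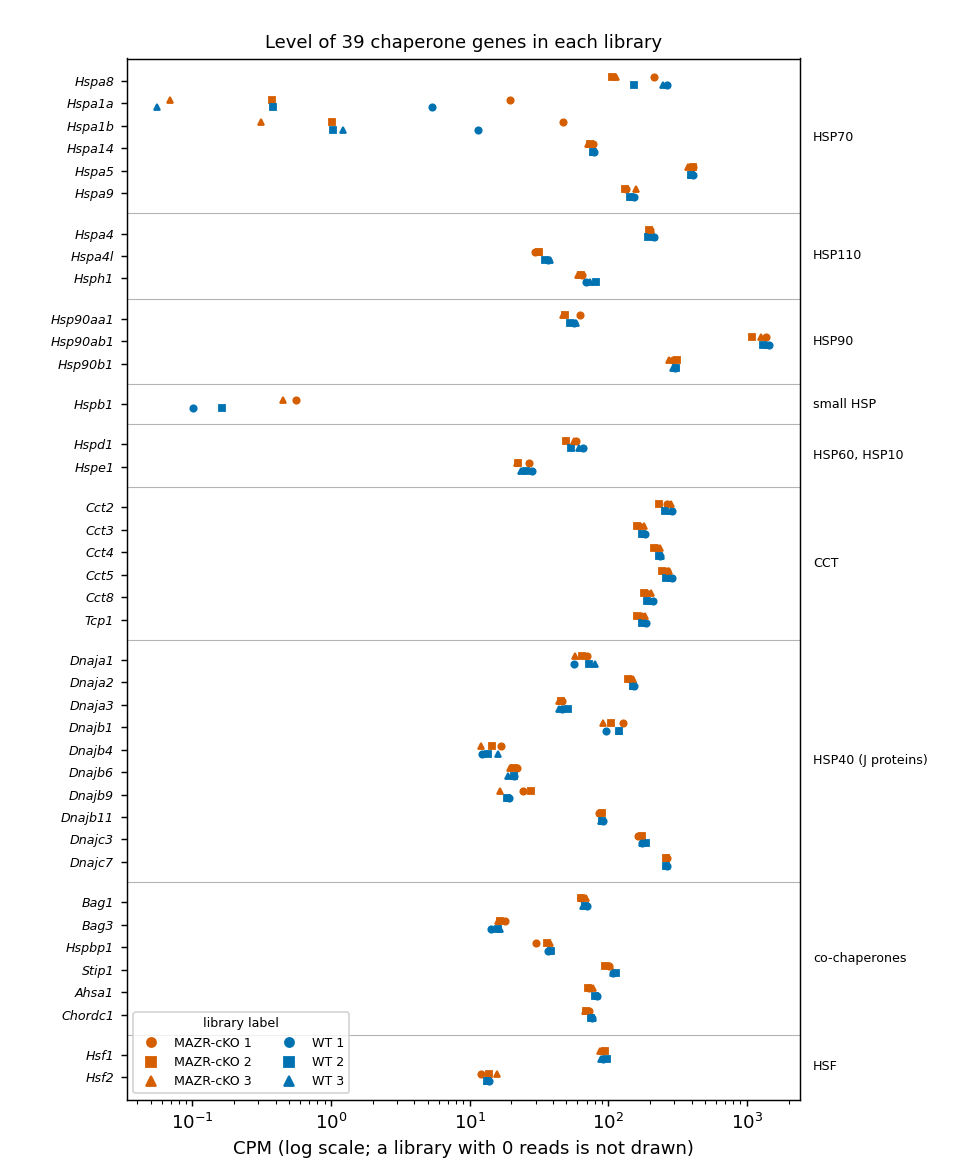
Level of each of the 39 genes in CPM (log axis) in 3 libraries labelled MAZR-cKO and 3 WT libraries, 1 point per library, grouped by protein family. Most genes lie within a narrow band in all 6 libraries, whereas Hspa1a and Hspa1b spread from 0.0559 to 19.5 CPM and from 0.312 to 47.3 CPM.

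No chaperone gene passed the test between the labels without a block on replicate number. In limma on log2(CPM + 0.5), 0 of the 37 had a Benjamini-Hochberg adjusted p under 0.05, beside 0.0415% of all 12040 genes tested. edgeR and DESeq2 on the recovered reads also called 0 of the 37, beside 0.0386% and 0.221% of all genes, all of them higher. DESeq2 gave no p for Hspa1b in this fit, so that gene had no DESeq2 test here. At an unadjusted limma p under 0.05, 6 were lower (2.92% of all genes) and 0 higher (2.33% of all genes). The lower ones were Hspa8, the HSP110 genes Hsph1 and Hspa4l, and the co-chaperone genes Stip1, Ahsa1 and Chordc1. The log2 fold change lay below 0 for 31 of the 37 genes, as for 56.1% of all genes, with a median of -0.07 against -0.01 over all genes tested. In 5 genes the libraries labelled MAZR-cKO lay wholly below the WT libraries (5.74% of all genes), and in 0 wholly above them (5.0%).

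Replicate numbers 1 to 3 occur under both labels and the libraries of 1 number deviated together, so each was also compared within its number. Of the 37 tested genes, 27 were lower within number 1 (56.9% of all genes), 27 within number 2 (53.3%) and 27 within number 3 (51.4%). In all, 14 were lower in all 3 numbers (19.2% of all genes) and 1, Dnajb6, was higher in all 3 (12.9%). A limma fit that blocked on that number called Hspa8 lower and no other of the 37, beside 0.382% of all genes called, 0.0831% lower and 0.299% higher. On the recovered reads the same block gave 0 calls among the 37 in edgeR (0.355% of all genes, 0.301% higher and 0.054% lower) and 0 in DESeq2 (0.179% of all genes, 0.154% higher and 0.0247% lower). Counting unadjusted p below 0.05, the limma block gave 8 lower genes (6.66% of all genes), the earlier 6 with Hsp90ab1 and Hspd1, and 0 higher (3.98%).

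**Figure D2:**
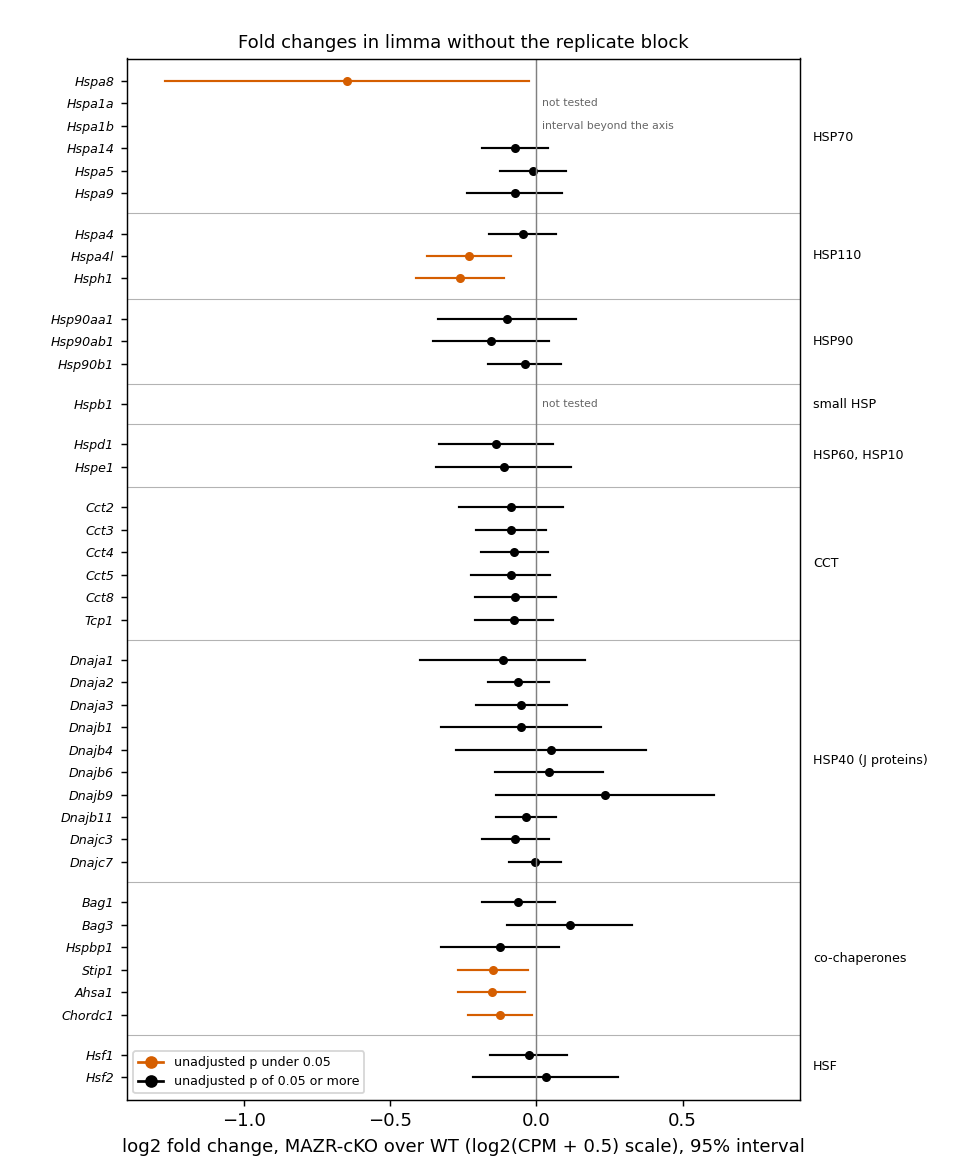
log2 fold change of each tested gene except Hspa1b, MAZR-cKO over WT, with its 95% interval from limma without the replicate block. Points in orange had an unadjusted p under 0.05. The 6 orange points lie below 0, from -0.65 for Hspa8 to -0.12 for Chordc1, and every other drawn interval spans 0. Hspa1a and Hspb1 were not tested. Hspa1b, with a log2 fold change of 0.29, is not drawn because its interval (-2.87 to 3.45) runs beyond the axis.

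Of the tested genes, the cytosolic HSP70 genes Hspa1b and Hspa8 varied the most between libraries, and so did the untested Hspa1a. Hspa1a (chromosome 17 from 34969190 to 34972156, minus strand, GRCm38) and Hspa1b (34956436 to 34959238, same strand), neighbouring genes for the stress-inducible HSP70, are known to be nearly silent in unstressed cells. Hspa1a stood at 19.5, 0.373 and 0.0694 CPM in libraries 1, 2 and 3 labelled MAZR-cKO, against 5.33, 0.384 and 0.0559 CPM in WT 1, 2 and 3, which is 313, 7 and 2 reads for MAZR-cKO and 105, 7 and 1 reads for WT. Hspa1b stood at 47.3, 1.01 and 0.312 CPM in libraries 1, 2 and 3 labelled MAZR-cKO, against 11.5, 1.04 and 1.23 CPM in WT 1, 2 and 3. Both were high in the library of replicate number 1 under each label and at 0.0559 to 1.23 CPM elsewhere, where 3 reads are worth 0.104 to 0.168 CPM, so the labels overlapped. Within number 1 the library labelled MAZR-cKO was higher than WT by 1.77 for Hspa1a and 2.00 for Hspa1b on the log2(CPM + 0.5) scale. Within number 2 the differences were -0.02 and -0.03, and within number 3 they were 0.03 and -1.09. The log2 fold change of Hspa1b between the labels depended on the setting. It was 0.29 in limma (adjusted p = 0.99) and -1.52 in limma without MAZR-cKO 1. In edgeR it was 1.78, or 1.36 with the block (adjusted p = 0.359), and in DESeq2 1.84, or 0.06 with the block. No setting called Hspa1b.

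The constitutive member, Hspa8, the main housekeeping HSP70 of the cytosol (chromosome 9 from 40800984 to 40810087, plus strand, GRCm38), differed by replicate number as well. Its level was 213, 107 and 114 CPM in libraries 1, 2 and 3 labelled MAZR-cKO, against 265, 152 and 248 CPM in WT 1, 2 and 3. WT 2 lay below the library labelled MAZR-cKO 1, so the labels overlapped, but within each number the library labelled MAZR-cKO was lower, with differences of -0.31, -0.50 and -1.12 on the log2 scale for numbers 1, 2 and 3. The means were 145 ± 59.4 CPM for MAZR-cKO and 222 ± 60.8 CPM for WT (SD, n = 3 each). Without the block the log2 fold change was -0.65 (SE 0.27, limma p = 0.043, adjusted p = 0.914), and an exact two-sided permutation test gave p = 0.2. With the block the same value had an SE of 0.11, a 95% interval of -0.89 to -0.40 and a limma adjusted p of 0.0379. This call was lost with the block in edgeR (log2 fold change -0.64, adjusted p = 0.0677) and in DESeq2 (-0.64, adjusted p = 1). It was also lost in limma with the block after quantile normalization (-0.63, adjusted p = 0.146), after equal medians (-0.64, 0.148) and without replicate 1 (-0.81, 0.0685). It held without replicate 2 (limma adjusted p = 0.0101) and without replicate 3 (0.000495), where the log2 fold change was -0.72 and -0.41. These 2 fits called 45 and 279 of all 12040 genes, against 46 with every replicate number kept.

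**Figure D3:**
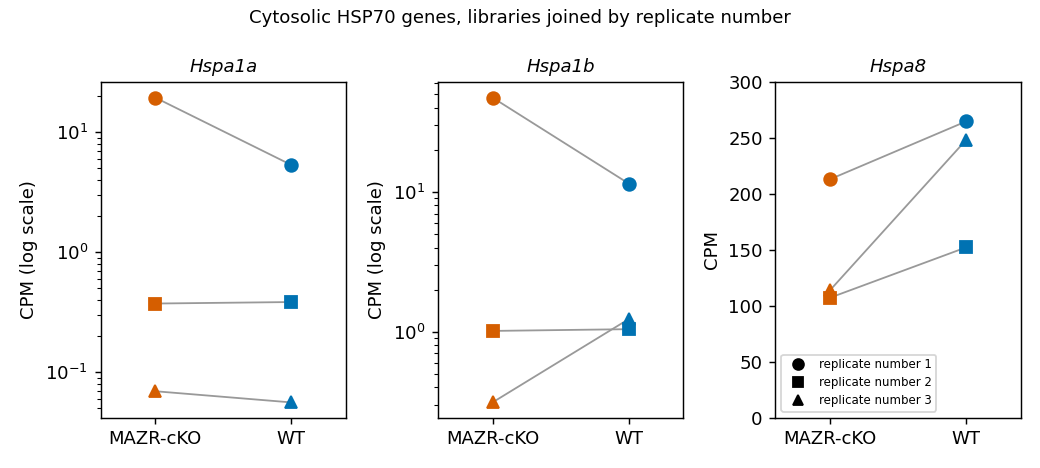
CPM of the inducible genes Hspa1a and Hspa1b (log axes) and the constitutive gene Hspa8 (linear axis) in each library labelled MAZR-cKO and WT, with lines joining libraries of the same replicate number. Number 1 is the highest in both labels for all 3 genes, and every Hspa8 line runs upward from MAZR-cKO to WT.

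An F test of the replicate number, chosen after seeing these values and taken from the limma fit with the block, called Hspa1b (adjusted p = 0.00183) and Hspa8 (adjusted p = 0.0135) and no other of the 37 genes, beside 3.36% of all genes. Without the filter on low values it also called Hspa1a (limma adjusted p = 0.000128). edgeR called the same 2 of the 37 genes (adjusted p = 0.000457 for Hspa1b and 0.0187 for Hspa8, beside 2.89% of all genes). Some myeloid and red cell markers differed by replicate number too, and so did markers of other lists. The limma F test called 1 of 2 tested plasma cell, 1 of 3 natural killer cell, 1 of 6 Treg and 1 of 5 sex-linked markers. It called none of the tested T cell, CD8 T, B cell, dendritic, neutrophil, platelet or stromal markers. Between the labels, limma, edgeR and DESeq2 with the block each called 1 of the 5 sex-linked markers higher and 0 lower. Of all genes, they called 0.299%, 0.301% and 0.154% higher. The summed level of the 4 monocyte and macrophage markers was 94.3, 76.0 and 32.4 CPM in libraries 1, 2 and 3 labelled MAZR-cKO, against 73.3, 58.0 and 49.2 CPM in WT 1, 2 and 3. The sum of 4 red cell markers was 18.2, 13.8 and 7.98 CPM under MAZR-cKO 1, 2 and 3, against 41.8, 22.8 and 12.1 CPM under WT 1, 2 and 3. Of these 8 markers, Csf1r, Adgre1, Hba-a1 and Hbb-bs were called by the limma F test, and 0 of the 8 was at 0 in every library. The red cell markers also differed between the labels, in the direction of Hspa8. Of these, 4 of 4 had a fold change below 0 (median -0.61, 56.1% of all genes below 0). Within all 3 numbers, 3 were lower (19.2% of all genes). Hbb-bs, a beta globin gene, was called lower with the block, with an adjusted p of 0.0206 in limma, 0.0135 in edgeR and 0.00194 in DESeq2. The part of these cells in the chaperone levels was not tested.

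The promoters of the inducible pair are shown because both genes were high in the same libraries and their sequences are almost the same. Of the 250 bases before the start, 247 were equal between Hspa1a and Hspa1b. Their annotated transcripts were 86.8% identical over 3005 aligned positions, and 58.8% of the 50-base stretches of Hspa1a also occur in Hspa1b, so reads may have been split or dropped between them and each level is uncertain. The sequences are those of RefSeq on GRCm38.p6, 5′ to 3′ on the gene's strand, and capitals mark the inverted heat shock repeat GAANNTTC.
Hspa1a chr17:34972157-34972406 (-): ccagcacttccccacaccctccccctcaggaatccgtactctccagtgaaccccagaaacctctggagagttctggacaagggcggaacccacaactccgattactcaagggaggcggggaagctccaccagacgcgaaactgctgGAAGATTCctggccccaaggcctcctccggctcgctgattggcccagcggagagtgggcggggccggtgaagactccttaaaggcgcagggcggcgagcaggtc
Hspa1b chr17:34959239-34959488 (-): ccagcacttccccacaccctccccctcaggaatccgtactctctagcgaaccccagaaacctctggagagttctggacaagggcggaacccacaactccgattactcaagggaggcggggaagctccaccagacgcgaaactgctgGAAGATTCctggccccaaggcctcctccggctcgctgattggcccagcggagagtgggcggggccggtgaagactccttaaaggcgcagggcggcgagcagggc
Both hold 1 such repeat, whose first base lies at position -104 from the start. The repeat was sought on both strands in windows of 250 bases before to 50 after the start, and 9.04% of all 27025 genes with a window held it. Of the 33 members with a window, 11 held it. A longer element, GAANNTTC followed by 2 bases of any kind and GAA, sought likewise, was held by 5 members, Chordc1, Dnajb6, Hspd1, Hspe1 and Hsph1, and by 0.662% of all genes. The longer element contains the repeat. Hspd1 and Hspe1 hold both in the same bases of a shared stretch, read from opposite strands, so these members count the same site. No window was used for Hspa8, Hspa9, Hsp90aa1, Hsp90ab1, Cct4 or Hsf1.

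The other HSP70 genes were steady. Hspa5, the ER HSP70 also called BiP, stood at 411, 409 and 375 CPM in libraries 1, 2 and 3 labelled MAZR-cKO, against 408, 397 and 399 CPM in WT 1, 2 and 3, and the labels overlapped. Its log2 fold change was -0.01 (95% interval -0.12 to 0.10). Hspa9, the mitochondrial HSP70 mortalin, averaged 141 ± 14.9 CPM for MAZR-cKO and 148 ± 4.26 CPM for WT (SD, n = 3 each), with a log2 fold change of -0.07 (95% interval -0.24 to 0.09). Hspa14, a ribosome-associated HSP70, averaged 74.6 ± 3.23 CPM for MAZR-cKO and 78.4 ± 0.824 CPM for WT, again within an interval that spans 0 (-0.19 to 0.04).

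None of the 3 HSP110 genes, whose products exchange the nucleotide of HSP70, passed the test. The levels of Hsph1 and Hspa4l did not overlap between the labels, as for 5.74% of all genes in that direction, and that of Hspa4 did. Hsph1 stood at 64.4, 63.4 and 60.3 CPM in libraries 1, 2 and 3 labelled MAZR-cKO, against 69.6, 81.9 and 74.3 CPM in WT 1, 2 and 3. Every library labelled MAZR-cKO lay below every WT library, with means of 62.7 ± 2.14 CPM for MAZR-cKO and 75.3 ± 6.21 CPM for WT (SD, n = 3 each). The log2 fold change was -0.26 (SE 0.07, 95% interval -0.41 to -0.11), with a limma p of 0.00368 and an adjusted p of 0.724, or 0.125 with the block. Over all alternatives the adjusted p of Hsph1 ran from 0.075 to 0.993 and the fold change from -0.33 to -0.20.

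Hspa4l, a close relative known to be abundant in testis, stood at 29.7, 31.6 and 31.6 CPM under MAZR-cKO 1, 2 and 3, against 36.5, 34.9 and 37.8 CPM under WT 1, 2 and 3. Here too all libraries labelled MAZR-cKO were below all WT libraries, with a log2 fold change of -0.23 (SE 0.06, limma adjusted p = 0.725, or 0.247 with the block). Hspa4, the broadly expressed member, stood at 200.3, 197 and 204 CPM under MAZR-cKO 1, 2 and 3, against 214, 194 and 214 CPM under WT 1, 2 and 3, and its labels overlapped. An exact two-sided permutation test gave p = 0.1 for Hsph1 and for Hspa4l, the smallest that 3 libraries against 3 allow. This value follows from the lack of overlap and adds nothing to it.

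Per length, Hsp90ab1 of the HSP90 family had the highest level of the 39 genes. HSP90 stabilises kinases and receptors late in folding, and Hsp90ab1 encodes its constitutive cytosolic form. Hsp90ab1 stood at 1371, 1098 and 1274 CPM in libraries 1, 2 and 3 labelled MAZR-cKO, against 1443, 1302 and 1409 CPM in WT 1, 2 and 3. The library labelled MAZR-cKO was the lower within each number, while MAZR-cKO 1 lay above WT 2. The log2 fold change was -0.16 (SE 0.09, limma adjusted p = 0.914), with an unadjusted p of 0.0118 and an adjusted p of 0.31 with the block. Per kilobase of annotated exon, Hsp90ab1 was at 439 CPM per kb over all libraries, against 13.8 for the inducible cytosolic form Hsp90aa1 and 73.8 for the ER form Hsp90b1. Hsp90aa1 stood at 62.6, 48.4 and 47.0 CPM under MAZR-cKO 1, 2 and 3, against 57.1, 52.7 and 58.2 CPM under WT 1, 2 and 3, and the difference within numbers 1, 2 and 3 was 0.13, -0.12 and -0.31 on the log2 scale. Hsp90b1, also called GRP94, stood at 293, 313 and 275 CPM under MAZR-cKO 1, 2 and 3, against 303, 309 and 293 CPM under WT 1, 2 and 3, with overlap and a log2 fold change of -0.04 (95% interval -0.17 to 0.09).

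None of the 6 co-chaperones passed the test. In 3 of them, Ahsa1, Stip1 and Chordc1, the libraries labelled MAZR-cKO lay below the WT libraries without overlap, as for 5.74% of all genes. Ahsa1, which activates the HSP90 ATPase, stood at 72.5, 71.2 and 77.5 CPM in libraries 1, 2 and 3 labelled MAZR-cKO, against 82.6, 80.2 and 83.1 CPM in WT 1, 2 and 3. Stip1, the adaptor between HSP70 and HSP90, stood at 101, 94.1 and 103 CPM under MAZR-cKO 1, 2 and 3, against 108, 115 and 108 CPM under WT 1, 2 and 3. Chordc1, an HSP90-binding protein, stood at 72.8, 68.7 and 68.6 CPM under MAZR-cKO 1, 2 and 3, against 76.7, 75.1 and 77.2 CPM under WT 1, 2 and 3. For each of these 3 genes an exact two-sided permutation test gave p = 0.1, the smallest possible here. Every gene without overlap gets this value, so it adds nothing to the lack of overlap. The log2 fold changes were -0.15 for Ahsa1 (SE 0.05, limma adjusted p = 0.914), -0.15 for Stip1 (SE 0.05, adjusted p = 0.914) and -0.12 for Chordc1 (SE 0.05, adjusted p = 0.914). With the block the limma adjusted p was 0.288, 0.339 and 0.394.

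The levels of the other co-chaperones, Bag1, Bag3 and Hspbp1, overlapped between the labels. Bag1 and Bag3 bind the HSP70 ATPase domain and release its nucleotide, and Bag3 is induced by stress. Bag1 averaged 65.4 ± 3.08 CPM for MAZR-cKO and 68.2 ± 2.16 CPM for WT (SD, n = 3 each), with a 95% interval of -0.18 to 0.06 for its log2 fold change. Bag3 averaged 16.9 ± 0.954 CPM for MAZR-cKO and 15.6 ± 1.28 CPM for WT, with an interval of -0.10 to 0.33. Hspbp1, another nucleotide exchange factor, stood at 30.2, 36.1 and 38.4 CPM under MAZR-cKO 1, 2 and 3, against 36.9, 38.6 and 38.2 CPM under WT 1, 2 and 3, with MAZR-cKO 1 the lowest of the 6.

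The HSP40 genes showed 3 patterns. Dnajc7, a tetratricopeptide co-chaperone of HSP70 and HSP90, was even: it stood at 264, 263 and 262 CPM in libraries 1, 2 and 3 labelled MAZR-cKO, against 266, 261 and 265 CPM in WT 1, 2 and 3, with a log2 fold change of -0.00 (95% interval -0.09 to 0.09) and the smallest spread within the labels. Dnaja2, Dnaja3, Dnajb6, Dnajb11 and Dnajc3 likewise had intervals within -0.21 to 0.23. Dnaja2 is cytosolic, Dnaja3 mitochondrial, and Dnajc3 and Dnajb11 serve BiP in the ER. Dnajc3 stood at 163, 176 and 172 CPM under MAZR-cKO 1, 2 and 3, against 175, 188 and 174 CPM under WT 1, 2 and 3.

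Dnaja1, Dnajb1 and Dnajb4, cytosolic J proteins of which Dnajb1 is a classical partner of inducible HSP70, differed in opposite directions between replicate numbers. They were singled out after their values were seen, and no test was made of the pattern. Dnajb1 stood at 127, 106 and 92.2 CPM in libraries 1, 2 and 3 labelled MAZR-cKO, against 96.4, 119 and 120.4 CPM in WT 1, 2 and 3. Under MAZR-cKO number 1 was the highest, and under WT it was the lowest. Within numbers 1, 2 and 3 the log2 differences were 0.39, -0.17 and -0.38 for Dnajb1, 0.31, -0.17 and -0.49 for Dnaja1 and 0.44, 0.10 and -0.40 for Dnajb4. The same signs, higher under MAZR-cKO within number 1 and lower within number 3, were shared by Hspa1b, Hsp90aa1, Dnajb9, Bag3, Hspa5 and Dnaja3, although for the last 3 the value within number 3 was -0.05, -0.09 and -0.01. Dnajb1 had a log2 fold change of -0.05 over all libraries, with a 95% interval of -0.32 to 0.22, and Dnaja1 and Dnajb4 had intervals of -0.40 to 0.17 and -0.27 to 0.37.

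**Figure D4:**
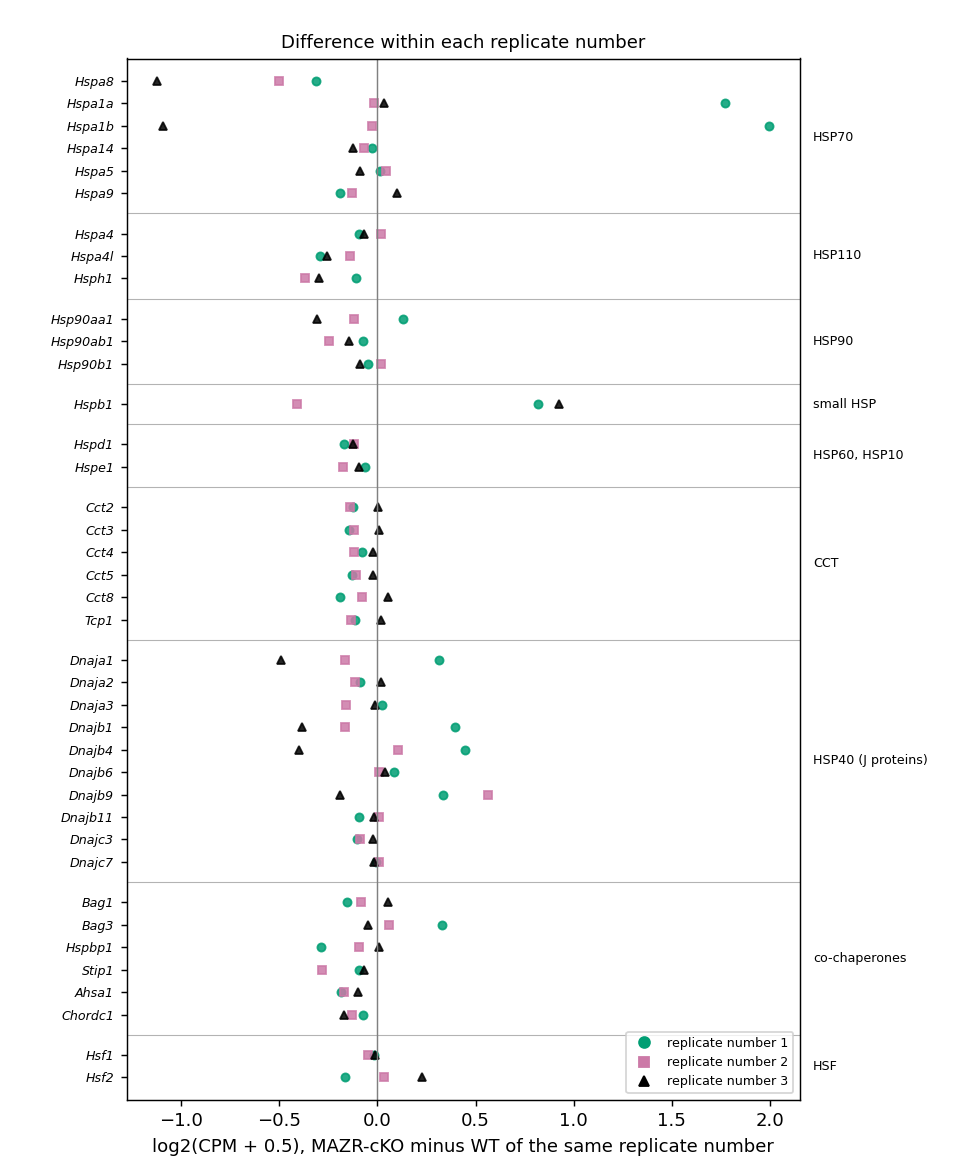
Difference in log2(CPM + 0.5), MAZR-cKO minus WT, within each replicate number for each of the 39 genes. Hspa8, Hsph1, Hspa4l, Ahsa1, Stip1 and Chordc1 lie below 0 in all 3 numbers, whereas Hspa1b, Dnaja1, Dnajb1 and Dnajb4 lie above 0 in number 1 and below 0 in number 3.

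Dnajb9, an ER J protein induced when misfolded proteins accumulate there, was high in 2 libraries only. It was singled out after its values were seen, and no test was made of the pattern. It stood at 24.3, 27.9 and 16.5 CPM in libraries 1, 2 and 3 labelled MAZR-cKO, against 19.2, 18.7 and 18.9 CPM in WT 1, 2 and 3. The libraries labelled MAZR-cKO 1 and 2 were above all others and MAZR-cKO 3 below all others, so the labels overlapped. The log2 fold change was 0.23 (SE 0.16, limma adjusted p = 0.917). Single libraries decided this value: with the block it was 0.45 without replicate 3 (limma adjusted p = 0.0244), 0.07 without replicate 2 (0.999) and 0.19 without replicate 1 (0.877). Without MAZR-cKO 2 alone it was 0.08. The block fit without replicate 3 called 279 of all 12040 genes, against 46 with every replicate number kept. Ppp1r15a, which ends the translation block of the integrated stress response, had the same order as Dnajb9, at 270.4, 298 and 128 CPM under MAZR-cKO 1, 2 and 3, against 149.7, 143 and 146 CPM under WT 1, 2 and 3. Its log2 fold change of 0.57 was the highest among 30 listed ER chaperone and unfolded protein response genes. Of those 30 genes, 24 lay below 0, with a median of -0.05, so Ppp1r15a does not stand for that list. The handling response gene Fos stood at 159, 195 and 51.5 CPM under MAZR-cKO 1, 2 and 3, against 87.6, 90.3 and 67.2 CPM under WT 1, 2 and 3. B cell markers were high in the same libraries: the sum of 4 was 58.5, 57.0 and 30.9 CPM under MAZR-cKO 1, 2 and 3, against 35.6, 37.3 and 41.6 CPM under WT 1, 2 and 3. Of these 4 markers, 4 had a fold change above 0, where 56.1% of all genes lay below 0, and 0 were called by limma. The part of the handling response and of B cell RNA in the level of Dnajb9 was not tested.

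**Figure D5:**
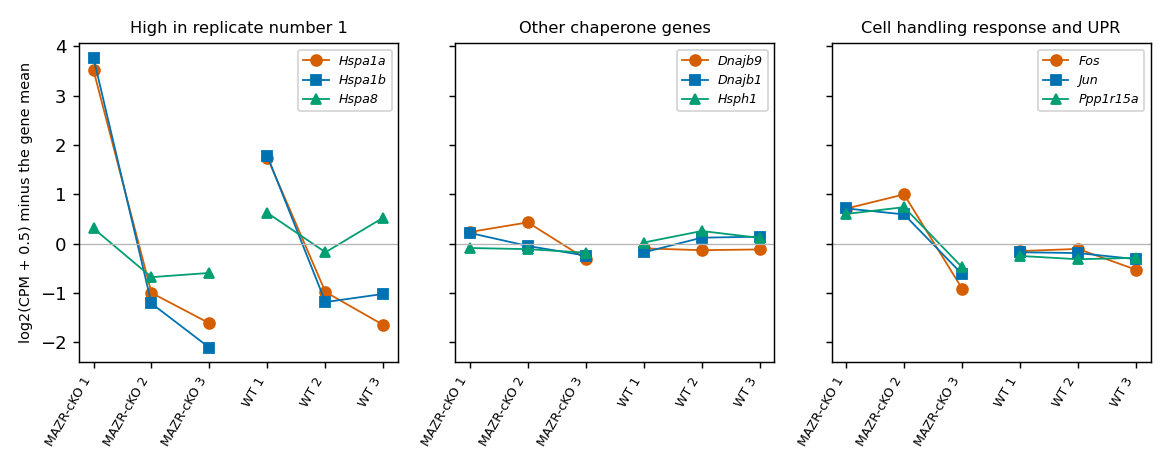
log2(CPM + 0.5) minus the gene's mean over the 6 libraries, for 3 HSP70 genes (left), 3 other chaperone genes (middle) and 3 genes of the cell handling and unfolded protein responses (right). Ppp1r15a had the highest fold change of its list of 30 ER chaperone and unfolded protein response genes, 24 of which lay below 0. Hspa1a and Hspa1b peak in number 1 of both labels, while Fos, Jun, Ppp1r15a and Dnajb9 are high in MAZR-cKO 1 and 2 and lowest of the 6 libraries in MAZR-cKO 3.

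The ER members as a set differed little. Summed over Hspa5, Hsp90b1, Dnajb9, Dnajb11 and Dnajc3, the level was 977, 1016 and 927 CPM in libraries 1, 2 and 3 labelled MAZR-cKO, against 997, 1002 and 974 CPM in WT 1, 2 and 3, and the labels overlapped. Genes of this compartment are known to share a promoter element, and the window of Hspa5 is shown as the example. Capitals mark the ER stress element, CCAAT and CCACG spaced by 9 bases, in the 250 bases before the start of Hspa5 (RefSeq, GRCm38.p6, 5′ to 3′ on the gene's strand).
Hspa5 chr2:34771840-34772089 (+): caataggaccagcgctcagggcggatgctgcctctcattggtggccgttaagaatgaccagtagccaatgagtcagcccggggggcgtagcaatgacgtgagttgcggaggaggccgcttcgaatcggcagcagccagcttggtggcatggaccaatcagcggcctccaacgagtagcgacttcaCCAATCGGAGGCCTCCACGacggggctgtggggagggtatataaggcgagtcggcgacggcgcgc
The element begins at position -65. Sought on both strands, it was held by 3 of the 33 members with a window, Hspa5, Hsp90b1 and Dnajc3, and by 0.137% of all genes. These 3 genes had log2 fold changes of -0.01, -0.04 and -0.07. A match in a window is a description of its letters, not a measured site.

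The mitochondrial chaperonin genes Hspd1 (HSP60) and Hspe1 (HSP10), whose products form the folding chamber of the matrix, lie head to head on chromosome 1, and their promoter windows share 285 bases. Hspd1 stood at 58.4, 49.9 and 56.7 CPM in libraries 1, 2 and 3 labelled MAZR-cKO, against 65.9, 54.2 and 61.8 CPM in WT 1, 2 and 3. Hspe1 stood at 26.8, 22.4 and 21.8 CPM under MAZR-cKO 1, 2 and 3, against 28.1, 25.4 and 23.4 CPM under WT 1, 2 and 3. Both were lower under MAZR-cKO within each number, while the labels overlapped. The log2 fold changes were -0.14 (95% interval -0.33 to 0.06) and -0.11 (95% interval -0.34 to 0.12), and with the block the limma adjusted p was 0.358 and 0.625. The window of Hspe1 holds 2 overlapping matches of the longer heat shock element, on opposite strands, in capitals below (RefSeq, GRCm38.p6, 5′ to 3′ on the strand of Hspe1).
Hspe1 chr1:55087898-55088147 (+): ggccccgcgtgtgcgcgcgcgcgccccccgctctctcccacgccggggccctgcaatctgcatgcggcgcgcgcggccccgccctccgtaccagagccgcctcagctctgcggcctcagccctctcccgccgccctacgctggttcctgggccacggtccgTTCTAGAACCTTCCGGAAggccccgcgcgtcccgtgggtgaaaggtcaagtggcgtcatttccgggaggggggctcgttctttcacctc

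The CCT subunits had near-equal differences between the labels, and none passed the test. Cct2 stood at 265, 232 and 285 CPM in libraries 1, 2 and 3 labelled MAZR-cKO, against 289, 256 and 284 CPM in WT 1, 2 and 3. Cct5 stood at 265, 243 and 275 CPM under MAZR-cKO 1, 2 and 3, against 289, 262 and 279 CPM under WT 1, 2 and 3. The other members, Cct3, Cct4, Cct8 and Tcp1, the last of which encodes the alpha subunit, had means of 175 to 231 CPM over all libraries. All 6 had a log2 fold change below 0 (56.1% of all genes), from -0.09 to -0.07. The library labelled MAZR-cKO was lower in 6 of 6 genes within number 1 (56.9% of all genes), in 6 of 6 within number 2 (53.3%) and in 2 of 6 within number 3 (51.4%). The subunits outside the list, Cct6a and Cct7, had log2 fold changes of -0.10 and -0.14. Limma called 0 of the 8 subunits, with or without the block. Subunit levels per length were uneven, from 27.4 CPM per kb for Cct3 to 105 CPM per kb for Cct2, although annotated exons that Treg cells do not use lower such values.

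Neither heat shock factor gene passed the test. Hsf1, the main stress-activated factor, stood at 90.2, 95.3 and 87.3 CPM in libraries 1, 2 and 3 labelled MAZR-cKO, against 91.2, 98.5 and 88.1 CPM in WT 1, 2 and 3. The range of Hsf1 over all 6 libraries was 87.3 to 98.5 CPM, beside 0.312 to 47.3 CPM for Hspa1b, and its log2 fold change was -0.03 (95% interval -0.16 to 0.11). HSF1 is chiefly controlled after translation, which these values do not show. Hsf2, a related factor, stood at 12.2, 13.7 and 15.8 CPM under MAZR-cKO 1, 2 and 3, against 13.7, 13.4 and 13.4 CPM under WT 1, 2 and 3, with an interval of -0.22 to 0.28 and overlapping labels. Within numbers 1, 2 and 3 its log2 differences were -0.16, 0.03 and 0.23. The small heat shock gene Hspb1 had 9, 0 and 13 reads in libraries 1, 2 and 3 labelled MAZR-cKO against 2, 3 and 0 reads in WT 1, 2 and 3, too few for a comparison.

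Related chaperone genes outside the list gave no call in limma either, and these lists too were chosen with earlier results known. Of 40 other cytosolic chaperones and co-chaperones 37 were tested, with 22 fold changes below 0, a median of -0.03, with 1 gene higher and 2 genes lower by unadjusted p under 0.05 (2.33% and 2.92% of all genes), where 56.1% of all genes lay below 0. Their smallest p belonged to Bag2, at 0.947 ± 0.2 CPM for MAZR-cKO and 1.67 ± 0.206 CPM for WT, Hspa12a, at 5.61 ± 0.485 CPM for MAZR-cKO and 4.0 ± 0.754 CPM for WT, and Pfdn5 of the prefoldin complex, at 136 ± 6.98 CPM for MAZR-cKO and 147 ± 2.4 CPM for WT, each without overlap between the labels (5.0% of all genes higher and 5.74% lower). Of 30 ER chaperone and unfolded protein response genes, all tested, 24 lay below 0 (median -0.05, against 56.1% of all genes below 0), with 0 genes higher and 2 genes lower by unadjusted p under 0.05, led by Sec61b of the translocon, at 26.9 ± 1.54 CPM for MAZR-cKO and 32.2 ± 2.15 CPM for WT, and the BiP nucleotide exchange factor Hyou1, at 128 ± 2.3 CPM for MAZR-cKO and 139 ± 4.87 CPM for WT. The 14 mitochondrial chaperones and proteases, all tested, had a median of 0.01, with the smallest p for Afg3l2 (-0.10), Timm44 (0.08) and Clpp (-0.12). The 11 tested genes of HSF regulation, of 14 listed, had a median of -0.04, with the smallest p for Camk2g (-0.10), Fbxw7 (-0.11) and Hsf4 (-0.17). In these 2 lists 0 genes had an unadjusted p under 0.05. In all 4 lists limma with the block and edgeR called 0 as well.

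Genes of the cell handling response, immediate early genes that rise while tissue is processed, lay mostly above 0. Of 15 listed genes 13 were tested, 11 of them with a fold change above 0 (median 0.16), where 56.1% of all genes lay below 0. Limma and edgeR called 0 of the 13. At an unadjusted p under 0.05 limma gave 1 higher and 0 lower without the block (2.33% and 2.92% of all genes) and 9 higher and 0 lower with it (3.98% and 6.66%). The F test of the replicate number called 2 in edgeR (2.89% of all genes) and 3 in limma (3.36%). Gadd45b stood at 56.7, 65.6 and 43.8 CPM under MAZR-cKO 1, 2 and 3, against 36.6, 39.8 and 43.6 CPM under WT 1, 2 and 3, without overlap (5.0% of all genes higher). Nr4a1 stood at 370.3, 387 and 214 CPM under MAZR-cKO 1, 2 and 3, against 239, 254 and 252 CPM under WT 1, 2 and 3, and Nfkbia averaged 445 ± 54.0 CPM for MAZR-cKO and 398 ± 21.2 CPM for WT. Without the library labelled MAZR-cKO 3, limma called Fos, Jun, Nr4a1 and Ppp1r15a higher, with adjusted p of 0.0312, 0.00191, 0.0058 and 0.000541, and still none of the 37 chaperone genes. The sum over the handling list was 3523, 4045 and 2739.9 CPM in libraries 1, 2 and 3 labelled MAZR-cKO, against 2781, 3166 and 2959 CPM in WT 1, 2 and 3. Its part in the chaperone levels was not tested.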

How the data were processed

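Poly(A) RNA of sorted splenic Treg cells was sequenced from 3 libraries labelled MAZR-cKO and 3 WT libraries, with a stranded kit per the labels' protocols. The deposited table gives CPM per Ensembl gene; per the submitters' processing notes the build was mm10 and the tools included STAR 2.5.2b and Subread 1.5.1, besides edgeR in R 3.4, and their settings are not given in the sources used here. 0 other columns of values were present. In each library 100.0% of the CPM values were whole multiples of the value of 1 read (within 0.01 read), which returned 15481565 to 28184456 reads.

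Genes at 1 CPM or more in at least 3 libraries were tested on log2(CPM + 0.5) in R 4.3.3 by limma 3.58.1, with Benjamini-Hochberg adjustment over 12040 genes and a threshold of 0.05; folds on this scale understate changes of low genes. The recovered reads were tested with edgeR 4.0.16 and DESeq2 1.42.0. The steps were also run on simulated data with 200 changed genes. The outcome is not given here, so no conclusion is drawn from that run. Libraries with the same replicate number deviated together (correlations of deviations from the label means 0.379 to 0.399), so libraries of equal number were treated as pairs. Different numbers gave -0.215 to -0.16. Deviations from a label mean cancel within the label, so these negative values follow from the positive ones and are no separate support.

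Alternatives were the replicate block, other pseudocounts, no filter, quantile normalization, equal medians, both count tools and leaving out each library. The replicate number F test was added after seeing the data. Members and lists were chosen with earlier results of these data known. Values are given per library for members called with or without the block, members whose labels do not overlap, the 6 of smallest p, the 2 most abundant per family, Hspa8, Hspa1a, Hspa1b, Hsf1 and Hsf2, and for the 3 genes of smallest p in each related list some values or folds. Genes outside this rule, among them Dnajb1, Dnajb9, Hsp90aa1 and Hspbp1, were chosen after their values were seen or are given as context. Promoter windows came from RefSeq, GRCm38.p6.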

Additional observations from a re-analysis of the deposited data

How the results depend on the processing

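Over all genes, limma without the block called 5. The replicate block gave 46, edgeR with the block 46, DESeq2 32, DESeq2 with the block 29, the block 23 after quantile normalization, 25 after equal medians and 36 without the filter (the last chosen after seeing the data). Leaving out 1 library gave 4 to 14, and the block without 1 replicate number gave 8 to 279 (45 without replicate 2). Of the chaperone genes limma called 0, the replicate block 1 (Hspa8), the block with no filter 1, and the block without 1 number 0 to 2, the second being Dnajb9 without replicate 3. In the related lists limma called 0 genes, 4 without MAZR-cKO replicate 3, and 11 with the block without replicate 3, Cct7 among them (-0.19, adjusted p = 0.0462). The median log2 fold change of the 37 tested genes was -0.07, with -0.092 (without WT 2) to -0.045 (without MAZR-cKO 2) when a library was left out and -0.10 to -0.06 in the block without 1 number. The shorter heat shock motif was held by 11 members (9.04% of all genes) in place of 5, and CCAAT alone by 18 (41.1% of all genes) and CCACG alone by 20 (35.5%) in place of 3. The replicate number F test called 2 members, and 3 with no filter. Of 814 values of single members under the alternatives, 772 kept direction and side of the threshold, 37 uncalled values in 11 members changed sign, 5 became calls and 0 calls reversed. The 772 include the value of Hspa1b in DESeq2 without the block, which had no p and so no side of the threshold. The causes of the changes were not tested. Hspa1a and Hspb1 did not pass the filter on low values and have no value in limma with it.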
